A study of Mus musculus with 46 samples.

Results

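The mammalian respiratory chain is built mostly from subunits that are encoded in the nucleus, translated on cytosolic ribosomes and imported into mitochondria. These nuclear-encoded subunits were examined in EPP2 cells, a murine pancreatic cancer line, in which the kinase mTOR and the tRNA-modifying enzyme Ctu1 had been perturbed separately and together. Members were taken by gene symbol, with the prefixes of complex I (Nduf followed by a, b, c, s or v and a number), complex II (Sdha to Sdhd), complex III (Uqcr genes and Cyc1), complex IV (Cox4 to Cox8 genes) and complex V, the ATP synthase (Atp5 genes). This rule, which uses no measured value, found 79 genes on 80 table entries among 10408 gene symbols in the DMSO tables. Atp5o stood on 2 entries, which were summed. There were 37 members under complex I, 4 under complex II, 9 under complex III, 12 under complex IV and 17 under complex V.

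Cells carried doxycycline-inducible Cas9, and the line was a single cell-derived clone. Ctu1 iKO cells also carried guides against Ctu1, and their Cas9 had been induced with 300 ng/ml doxycycline for 4 days. Control cells were labelled as the negative control, which in the study's methods means either cells that were not induced or cells whose guides target no gene. If they were not induced, effects of doxycycline and of Cas9 cannot be told apart from those of Ctu1 loss in any comparison of genotypes. Cultures then received DMSO or 300 nM torin 1, an inhibitor of the mTOR kinase, for 2 h. By the study's methods ribosome footprints and poly(A) RNA came from the same 23 cultures, which are matched here by the number in the label. Of these, 6 were control with DMSO, 6 control with torin 1, 5 Ctu1 iKO with DMSO and 6 Ctu1 iKO with torin 1.

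Electrons enter the chain through complex I (NADH dehydrogenase) and complex II (succinate dehydrogenase), pass through complex III (the cytochrome bc1 complex) to complex IV (cytochrome c oxidase), and the proton gradient that results drives complex V. mTORC1 promotes the translation of mRNAs that begin with a cytosine followed by a pyrimidine tract (5′ terminal oligopyrimidine, or TOP, motifs), which encode above all ribosomal proteins. Ctu1 thiolates the wobble uridine of the tRNAs that read the AAA, CAA and GAA codons.

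Footprint libraries held 4602092 to 52907878 counts and the RNA libraries used here 129881946 to 293648854. Footprint libraries lay with their treatment labels: cytosolic ribosomal proteins took 7.61 to 9.05% of footprints with DMSO, 4.15 to 4.80% in control with torin 1 and 2.58 to 3.03% in Ctu1 iKO with torin 1. Some RNA libraries of replicates 4 to 6 did not. A score of the genes that torin 1 moved in RNA replicates 1 to 3 placed the RNA of Ctu1 iKO DMSO cultures 4 and 5 at 1.1669 and 1.1002, among the torin 1 libraries, and the RNA of control torin 1 cultures 5 and 6 at 0.158 and 0.167, near the control DMSO libraries (-0.185 to 0.034). The RNA of Ctu1 iKO torin 1 cultures 5 and 6 lay between, at 0.448 and 0.514, and the other libraries of replicates 4 to 6 lay with their labels. RNA values come from replicates 1 to 3, and the calls of members in footprints that rest on Ctu1 iKO DMSO cultures 4 and 5 are also given without them. Control torin 1 cultures 5 and 6 were left out of footprints together only in fits of replicates 1 to 3 or of 1 and 2. Ctu1 itself had 1.58 to 3.43 footprint counts per 1000000 (CPM) in control DMSO and 1.30 to 2.27 in Ctu1 iKO DMSO. The ranges overlapped, and since a gene count need not show such edits it does not check the genotype labels. Of 8 listed epithelial markers 4 were measured (Krt8, Krt18, Krt19 and Sox9, 307 to 499 CPM of footprints in sum), and of 8 mesenchymal markers 6 (Vim, Col1a1, Col3a1, Pdgfra, Pdgfrb and Acta2, 2546 to 6249 CPM). In RNA the mesenchymal sum was 2850 to 2984 CPM in control DMSO and 3523 to 3712 in Ctu1 iKO DMSO, and the epithelial sum 288 to 311 and 317 to 395. Acinar and endocrine markers had no entry, and of 5 blood markers only Cd14 was measured, at 2.02 to 8.86 CPM.

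In control cells with DMSO, ATP synthase subunits carried the most footprints for their coding length and complex II the fewest. The complex medians were 153 CPM per coding kilobase for complex I, 69.0 for complex II, 162 for complex III, 440 for complex IV and 769 for complex V, over the 75 members with an annotated coding length. The 3 genes for the c subunit of the ATP synthase ring, which encode the same mature protein behind different import sequences, lay close together at 917 ± 51.3 (Atp5g1), 983 ± 89.7 (Atp5g2) and 955 ± 102 (Atp5g3) CPM per coding kilobase (SD, n = 6), differences within the spread between cultures. In the F1 head the level was 656 for Atp5a1, the alpha subunit, and 474 for Atp5b, the beta subunit. Complex II ran from 48.7 for Sdha, the flavoprotein, through 57.5 for Sdhb, the iron-sulfur subunit, and 80.4 for Sdhd to 144 for Sdhc, which together anchor the complex in the membrane. The extremes over all complexes were Cox7c, a small cytochrome c oxidase subunit, at 1080, and Ndufv3, an accessory complex I subunit, at 18.1. Relative to its mRNA, Atp5g2 had the most footprints of the c-subunit genes. Its log2 ratio of footprint CPM to RNA CPM was 2.03 ± 0.27, against 0.47 ± 0.09 for Atp5g1 and 0.75 ± 0.16 for Atp5g3 (SD, n = 3). The ratio is not corrected for transcript or coding length.

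**Figure D1:**
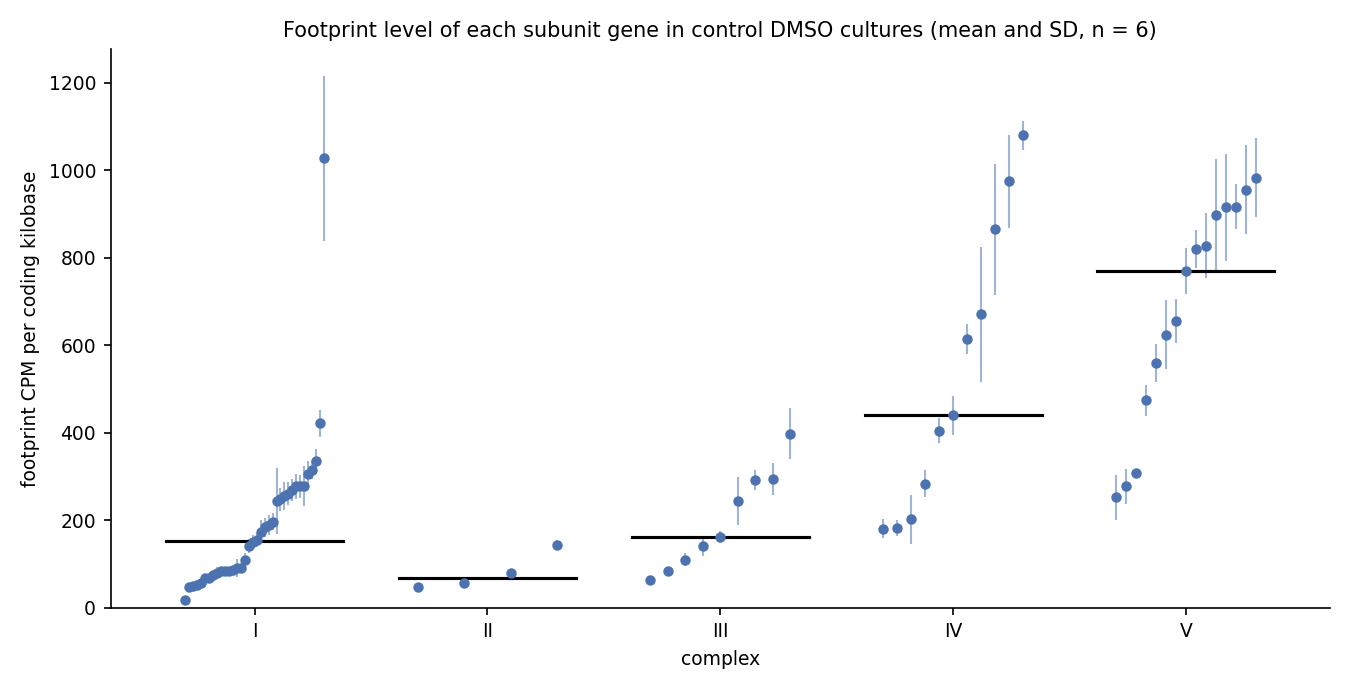
Footprint level of each nuclear-encoded subunit in control cells with DMSO, in CPM per coding kilobase on a linear axis from 0, with genes grouped by complex. Points are means, bars the SD over 6 cultures and black lines complex medians, and the complex V and IV genes sit mostly above those of complexes I, II and III (medians 769 and 440 against 153, 69.0 and 162).

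In control cells torin 1 lowered the footprints of a few respiratory chain genes, while the median of the members lay near that of all genes. The members called were Cox7a2l, Atp5g2 and Ndufb5, all lower. These are 3 of 79 members, beside 4.33% of all genes called lower, a share near that background. The median log2 change over the 79 was 0.00, against 0.02 over all genes tested, and 42 of 79 lay above 0. Medians by complex were 0.01 for complex I, 0.04 for complex II, 0.00 for complex III, 0.09 for complex IV and -0.06 for complex V. In the same fit 76 of 80 cytosolic ribosomal proteins were lower, with a median of -0.96. All changes are relative to the other genes in a library, because total translation was not measured, and fewer ribosomes on a gene cannot be told apart from a change in all others.

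**Figure D2:**
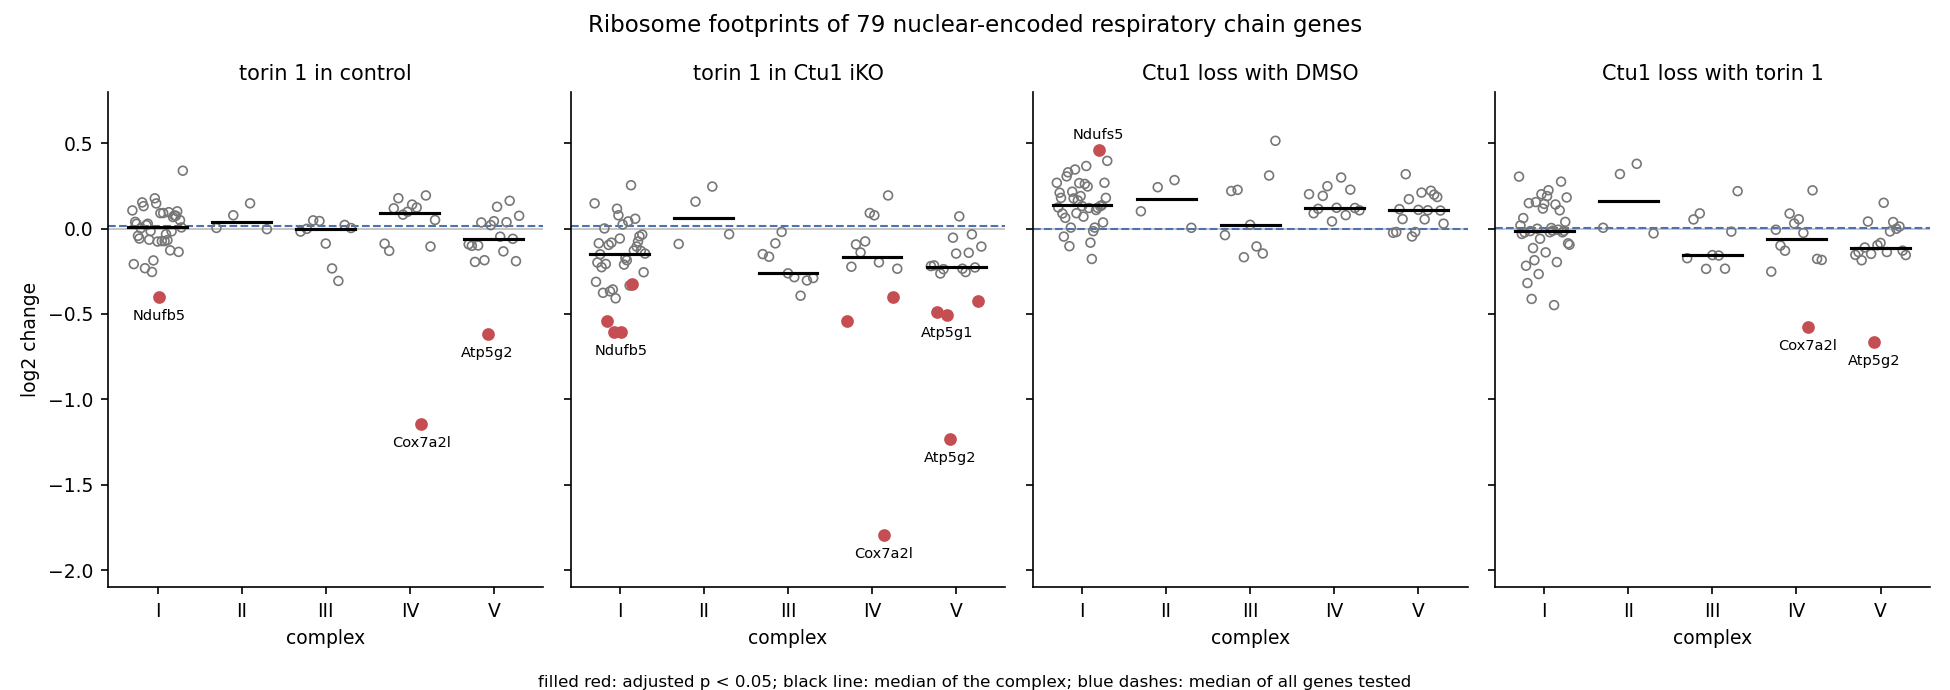
Log2 change of ribosome footprints for each subunit by complex (x axis, I to V), in 4 panels for torin 1 in control, torin 1 in Ctu1 iKO, Ctu1 loss with DMSO and Ctu1 loss with torin 1. Points are genes, filled red at an adjusted p under 0.05, black lines are complex medians and blue dashes the median of all genes. Cox7a2l and Atp5g2 are the 2 lowest points in both torin 1 panels, and 11 members are red with torin 1 in Ctu1 iKO against 3 in control.

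Cox7a2l, which encodes a factor that joins complexes III and IV into supercomplexes, had the largest change of any member. Its footprints were at 49.9, 60.0 and 68.2 CPM (lowest, median and highest of 6) in control DMSO and at 19.4, 27.7 and 33.8 with torin 1. The groups did not overlap, and every torin 1 culture lay below every DMSO culture. Footprints fell to 45.2% of the DMSO level, a ratio of mean CPM as are all percentages of a level here (fitted log2 change -1.15 ± 0.13 SE, adjusted p = 2.01e-05, edgeR quasi-likelihood test with Benjamini-Hochberg adjustment over all genes, as for every adjusted p here). Atp5g2 was at 388, 427 and 483 CPM with DMSO and at 247, 281 and 313 with torin 1, again without overlap. It fell to 65.1% (-0.62 ± 0.09, adjusted p = 0.000318). Ndufb5, an accessory subunit in the membrane arm of complex I, was at 130, 161 and 177 CPM with DMSO and at 96.6, 123 and 134 with torin 1. Its ranges overlapped, its value was 75.7% of the DMSO level (-0.40 ± 0.10, adjusted p = 0.0268), and the call held in 6 of 12 fits that each left out 1 library. With only the cultures of replicates 1 and 2, 0 members were called, beside 111 of 9847 genes called lower, with adjusted p = 0.0781 for Cox7a2l and 0.0518 for Atp5g2.

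Neither of the other c-subunit genes passed the test in control cells. Atp5g3 was at 335, 416 and 455 CPM with DMSO and at 358, 402 and 476 with torin 1, with overlapping groups (0.02 ± 0.09). Atp5g1 was at 338, 377 and 402 with DMSO and at 296, 331 and 360 with torin 1, also overlapping (-0.19 ± 0.07, adjusted p = 0.165). The difference between these genes within a library was not tested. In the rest of complex V, Atp5a1 and Atp5b changed by -0.09 and -0.10 without passing the test.

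The first bases of these mRNAs are shown because TOP motifs are defined by position. Each sequence below runs 5′ to 3′ on the transcribed strand, with 10 bases before the RefSeq start in lower case and the first 20 bases of exon 1, which are 5′ untranslated, in capitals (GRCm38.p6). The order is the c-subunit genes, then Cox7a2l and Ndufb5, and last Ndufs5, the member called with Ctu1 loss under DMSO.
Atp5g1 (chr11:96075612-96075641, minus strand): ggctaaagctGGGAGGTGAGTCAGTCACCT
Atp5g2 (chr15:102671028-102671057, minus strand): gcgcccccgcCCCTCTCTGTCTTCTCTGCC
Atp5g3 (chr2:73911307-73911336, minus strand): cggcgcggatAAGAGCCGCACCGCGCTTGC
Cox7a2l (chr17:83514314-83514343, minus strand): ggggaagccgGGTCCTTTTCTAGGGCGGTC
Ndufb5 (chr3:32737053-32737082, plus strand): ccccacttccTTCCGTGGCCGGTGTAGCCA
Ndufs5 (chr4:123718167-123718196, minus strand): ggcgtcctttACGGCAGGCGTCTGCGTCCT

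At the RefSeq start Atp5g2 opens with a C and a run of pyrimidines, while Atp5g1 opens with G and Atp5g3 with A. Cox7a2l opens with 2 G before its pyrimidine run at this RefSeq start, but with CCTTTTCTAGGGCGGTCGCA in both coding transcripts of GENCODE M21. For Atp5g2 the annotations differ the other way, since 0 of its 4 coding transcripts in GENCODE M21 opens with C and 4 pyrimidines. The 2 that do not open with C begin with ATG or a few bases after it. They may lack the 5′ end, so they do not mark a start. A tract, searched as C followed by 4 bases that are each C or T on the transcribed strand, stood exactly at the RefSeq start in 2.96% of 7839 genes, in 4 of 64 members with a promoter entry (Atp5d, Atp5g2, Ndufb11 and Uqcrfs1), in 13 of 60 cytosolic ribosomal proteins and in 0 of 69 mitochondrial ribosomal proteins. Within 5 bases of the start it stood in 24.0% of all genes and in 18 of 64 members, among them Cox7a2l, Ndufb5 and Ndufs5. Annotated starts can lie some bases from the ones used in these cells, which were not mapped here, and a match is not a measured motif.

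**Figure D3:**
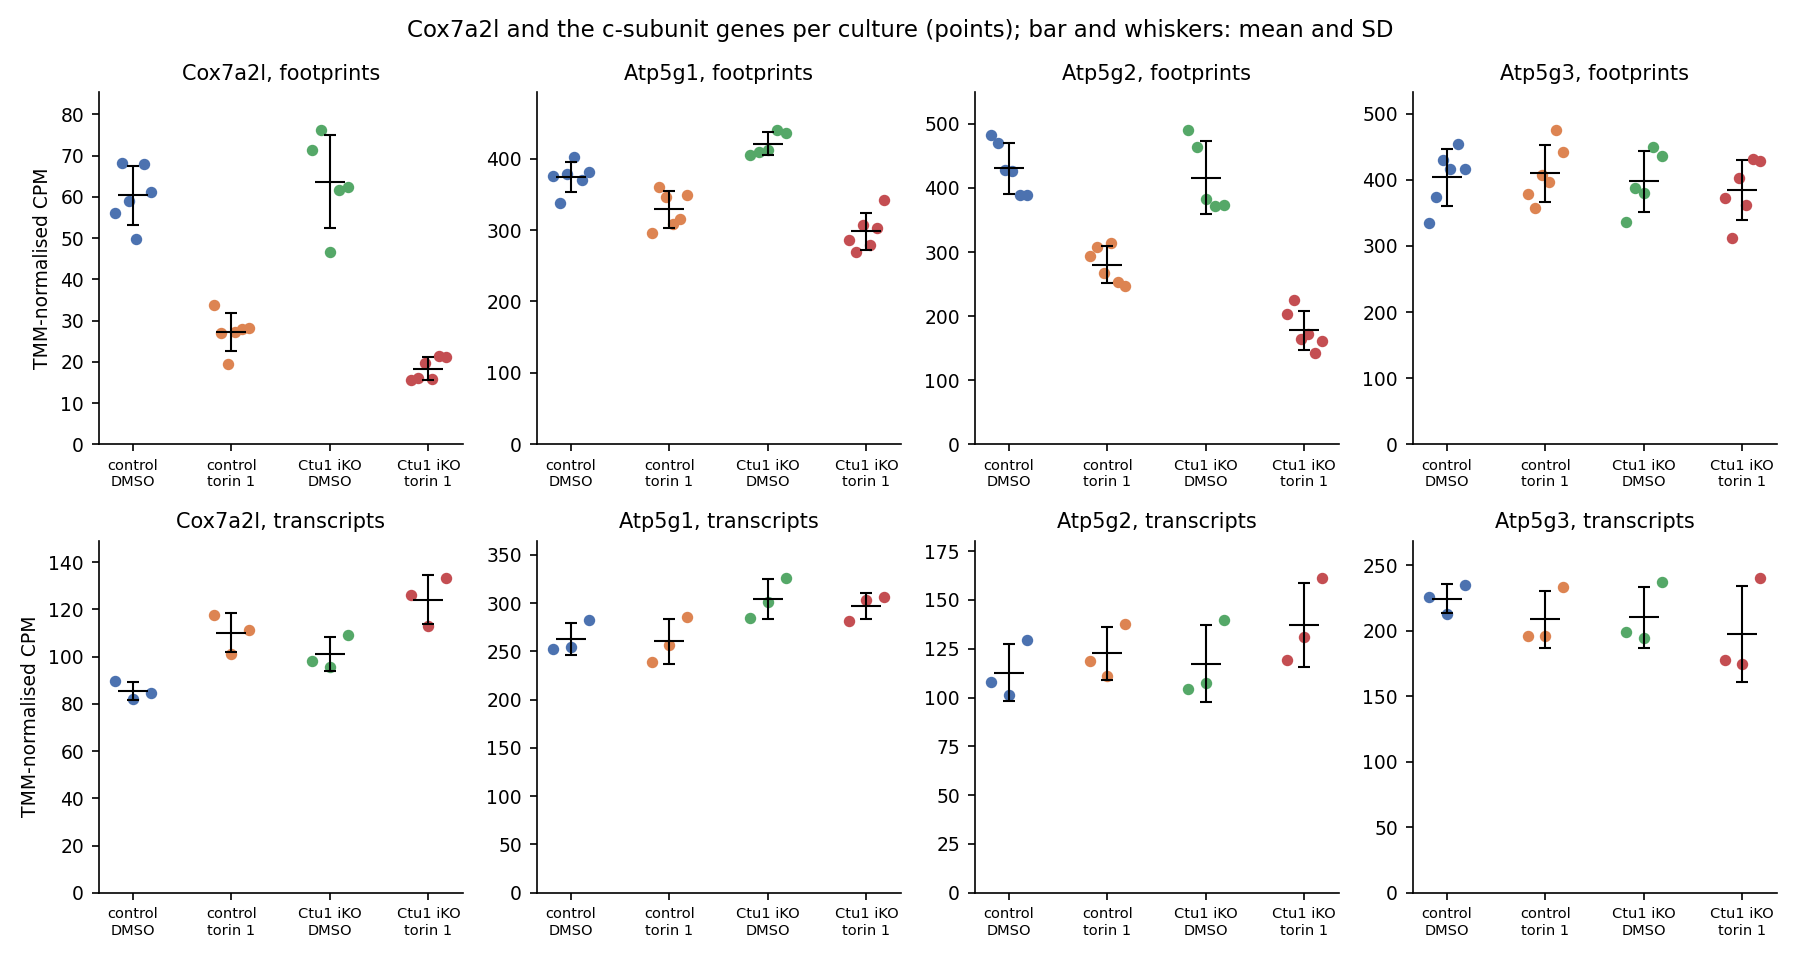
Normalised CPM of Cox7a2l, Atp5g1, Atp5g2 and Atp5g3 in every culture, with footprints in the top row and transcripts in the bottom row. Points are cultures, grouped on the x axis as control DMSO, control torin 1, Ctu1 iKO DMSO and Ctu1 iKO torin 1. Footprints of Cox7a2l and Atp5g2 step down with torin 1 and are lowest in Ctu1 iKO with torin 1 (medians 17.98 and 169 CPM), while Atp5g3 stays between 313 and 476 CPM in all groups.

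Each numbered control DMSO culture deviated together with its numbered torin 1 culture, so that the numbers pair them. With the replicate number as a block, 13 members passed in control cells. The 3 higher ones were Atp5md (0.16, adjusted p = 0.0376), a membrane subunit of the ATP synthase, Cox7b and Ndufa4, which is now counted with complex IV, beside 9.9% of all genes called higher in that fit. The 10 lower ones were Cox7a2l, Atp5g2, Atp5c1, Atp5o, Ndufb5, Ndufb10, Ndufa6, Ndufa10 (-0.21, adjusted p = 0.0387), Uqcrc2 (-0.23, adjusted p = 0.0443) and Uqcrfs1, beside 10.6% of all genes. Uqcrfs1, the Rieske iron-sulfur protein of complex III, was at 64.3, 68.8 and 78.9 CPM with DMSO and at 46.8, 57.0 and 61.7 with torin 1. It is 1 of 4 members whose groups did not overlap, all lower with torin 1, with Cox7a2l, Atp5g2 and Ndufa10, beside 3.43% of all genes.

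In Ctu1 iKO cells torin 1 lowered footprints of 11 members and raised none. That is 11 of 79, beside 4.52% of all genes called lower. They were 4 genes of complex I (among them Ndufb10, Ndufb5 and Ndufa6), 3 of complex IV (Cox7a2l, Cox4i1 and Cox7c) and 4 of complex V (Atp5g2, Atp5g1, Atp5c1 and Atp5o), with 0 of 4 in complex II and 0 of 9 in complex III. The median over the 79 was -0.16 against 0.02 for all genes, and 14 of 79 lay above 0. By complex the median was -0.15 for complex I, 0.06 for complex II, -0.26 for complex III, -0.17 for complex IV and -0.23 for complex V. Of the 9 complex III genes 0 lay above 0, and of the 17 complex V genes 1. Cytosolic ribosomal proteins had a median of -1.59, with 78 of 80 called lower.

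Cox7a2l again had the largest change. It was at 71.4, 76.3, 46.7, 61.6 and 62.5 CPM in Ctu1 iKO cultures 1 to 5 with DMSO and at 15.6, 17.98 and 21.3 with torin 1. Every torin 1 value was below every DMSO value, and footprints fell to 28.8% (-1.80 ± 0.15, adjusted p = 1.65e-06). Atp5g2 was at 491, 463, 382, 373 and 373 CPM with DMSO and at 142, 169 and 224 with torin 1, and fell to 42.8% (-1.23 ± 0.13, adjusted p = 1.66e-05) without overlap. Both calls held under each of the 10 other settings tried for this comparison and with each of its 11 libraries left out.

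Among the other complex V genes Atp5g1, Atp5c1 and Atp5o were called lower. Their fitted changes were smaller than that of Atp5g2, a difference that was not tested. Atp5g1 was at 405, 409, 412, 440 and 437 CPM with DMSO and at 270, 295 and 342 with torin 1, which is 70.8% (-0.50 ± 0.09, adjusted p = 0.00171) with no overlap. Atp5g3 did not pass, at 336, 387, 380, 450 and 436 CPM with DMSO and 313, 387 and 432 with torin 1 (-0.05 ± 0.11). Thus of the c-subunit genes Atp5g1 and Atp5g2 were called in Ctu1 iKO cells and Atp5g3 was not. Atp5c1, the gamma subunit of the central stalk, was at 780, 818, 971, 934 and 916 CPM and fell to between 522 and 697 (-0.49 ± 0.11, adjusted p = 0.0118). Atp5o, the OSCP subunit that links F1 to the peripheral stalk, went from 410, 397, 400, 360 and 352 CPM to between 236 and 330 (-0.42 ± 0.10, adjusted p = 0.0148). Both genes were without overlap between DMSO and torin 1 cultures.

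Among complex IV genes Cox4i1, the largest nuclear-encoded subunit, was at 684, 642, 535, 475 and 501 CPM with DMSO and at 348, 390 and 438 with torin 1, 69.2% of the DMSO level (-0.54 ± 0.11, adjusted p = 0.00948). Cox7c was at 229, 251, 197, 235 and 195 CPM and at 152, 165 and 193 with torin 1 (-0.40 ± 0.10, adjusted p = 0.0263). Neither pair of groups overlapped, though for Cox7c the gap was narrow, and its call held in 4 of 11 such fits. Cox5a and Cox5b, subunits on the matrix side, had changes of -0.22 and -0.09 that did not pass.

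Among complex I genes Ndufb10, an accessory membrane-arm subunit, was at 73.2, 89.5, 78.0, 80.1 and 77.1 CPM with DMSO and at 37.1, 54.7 and 59.2 with torin 1 (-0.61 ± 0.12, adjusted p = 0.00537). Ndufb5 went from 148, 170, 152, 182 and 171 CPM to 77.8, 110 and 141 (-0.61 ± 0.13, adjusted p = 0.0104). Ndufa6, an accessory subunit that holds an acyl carrier protein on the matrix arm, went from 101, 83.9, 89.6, 91.8 and 85.9 to 51.8, 62.3 and 80.2 (-0.54 ± 0.12, adjusted p = 0.0121). All 3 accessory genes had torin 1 cultures wholly below the DMSO cultures. Ndufs1 and Ndufv1, core subunits of the electron input module, had values of 0.25 ± 0.16 and -0.04 and did not pass.

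Complexes II and III gave no call. Sdhc and Sdhb had values of 0.25 (adjusted p = 0.227) and 0.16, Sdha and Sdhd of -0.09 and -0.03. Uqcrc1, a core protein of complex III, had -0.26 and Cyc1, its cytochrome c1, -0.15.

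In all 14 members had DMSO and torin 1 cultures that did not overlap in Ctu1 iKO, all lower with torin 1, beside 4.69% of all genes. They are the 11 called members with Atp5a1 (-0.22, adjusted p = 0.0722), Atp5b (-0.22 ± 0.08, adjusted p = 0.125) and Uqcrfs1 (-0.39 ± 0.12, adjusted p = 0.0721). Without Ctu1 iKO DMSO cultures 4 and 5, whose RNA lay with torin 1 libraries, 6 members were called lower (Atp5g1, Atp5g2, Atp5o, Cox4i1, Cox7a2l and Ndufb10), beside 279 of 9867 genes, and the members' median was -0.25. Atp5c1, Cox7c, Ndufa6 and Ndufb5 were among those then not called. With the cultures of replicates 1 to 3 alone, or of replicates 1 and 2, only Atp5g2 and Cox7a2l were called, beside 148 of 9859 and 131 of 9830 genes called lower.

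With DMSO the footprint values of most members were slightly higher in Ctu1 iKO than in control. The study reports that Ctu1 loss raised ribosome occupancy at AAA codons and lowered most newly synthesised proteins. A higher footprint value is thus not a measure of more synthesis, and slower decoding was not tested. Of 79 members 66 lay above 0, with a median of 0.12 against 0.00 for all genes. Medians were 0.14 for complex I, 0.17 for complex II, 0.02 for complex III, 0.12 for complex IV and 0.11 for complex V, and 12 of 12 complex IV genes lay above 0. Their summed share of all footprints was 1.19 to 1.24% in control and 1.29 to 1.36% in Ctu1 iKO, without overlap. Their mean log2(CPM + 1), which weights genes equally, overlapped between the groups (6.62 to 6.77 in control and 6.76 to 6.89 in Ctu1 iKO), as did that of each complex. Single genes rarely passed the test. Ndufs5, an accessory complex I subunit on the intermembrane space side, was the only member called, 1 of 79 beside 1.63% of all genes called higher. It was at 79.2, 86.2 and 103 CPM in control and at 115, 139, 111, 127 and 115 in Ctu1 iKO, with every Ctu1 iKO culture above the controls (0.46 ± 0.09, adjusted p = 0.0189, 137% of control). Without Ctu1 iKO cultures 4 and 5 Ndufs5 had an adjusted p of 0.059 and Uqcrq, a small complex III subunit (0.51 ± 0.14, adjusted p = 0.0664 with all cultures), was called in its place, beside 137 of 10408 genes called higher. Without control DMSO culture 3 the adjusted p of Ndufs5 was 0.0511.

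Sdhc was at 64.1, 75.1 and 78.0 CPM in control and at 99.1, 83.9, 95.8, 78.98 and 86.2 in Ctu1 iKO. These groups did not overlap, but the value of 0.28 did not pass (adjusted p = 0.116). Ndufs5, Sdhc and Atp5g1 were the 3 members without overlap, all higher in Ctu1 iKO, beside 2.35% of all genes. Ndufa4 (0.31, adjusted p = 0.274) and Ndufv1 (0.27, adjusted p = 0.138) also had positive values that did not pass.

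With torin 1 present, loss of Ctu1 lowered Atp5g2 and Cox7a2l further and left the median of the members near 0. These are 2 of 79 members, beside 2.74% of all genes called lower. The median was -0.02 against 0.01 for all genes, and 30 of 79 lay above 0. Medians were -0.01 for complex I, 0.16 for complex II, -0.16 for complex III, -0.06 for complex IV and -0.11 for complex V, and the cytosolic ribosomal proteins had -0.72, with 72 of 80 called lower. Atp5g2 was at 247 to 313 CPM in control with torin 1 and at 142 to 224 in Ctu1 iKO with torin 1, without overlap (-0.66 ± 0.12, adjusted p = 0.00377, 63.5% of control). Cox7a2l was at 19.4 to 33.8 against 15.6 to 21.3 CPM, with overlap (-0.58 ± 0.15, adjusted p = 0.0397, 67.2% of control), and its call held in 3 of 12 fits that each left out 1 library. Cyc1 was the other member without overlap, at 145 to 175 CPM in control and 135 to 145 in Ctu1 iKO. The 2 ranges met within 1 CPM, its value of -0.17 ± 0.08 did not pass (adjusted p = 0.261), and such a lack of overlap was found for 2.51% of all genes in this direction.

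Complex II genes had the highest median of the complexes here. Sdhc was at 75.2, 77.6 and 95.0 CPM in control with torin 1 and at 85.7, 107 and 121 in Ctu1 iKO with torin 1 (0.38 ± 0.11, adjusted p = 0.0517). Sdhb was at 40.9, 52.4 and 59.3 against 49.6, 66.6 and 78.2 (0.32, adjusted p = 0.198). Both ranges overlapped, and Sdha and Sdhd had values of 0.00 and -0.03. The mean log2 level of the 4 genes did not overlap between these groups (difference 0.17). Torin 1 cultures of the same number deviated together, and with the number as a block 9 members passed. The 4 higher were Cox7b, Sdhb, Sdhc and Uqcrq, beside 6.88% of all genes, and the 5 lower were Atp5g2, Cox7a2l, Cox4i1, Ndufa6 and Ndufc2 (-0.44 ± 0.07, adjusted p = 0.00221), beside 7.49%.

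**Figure D4:**
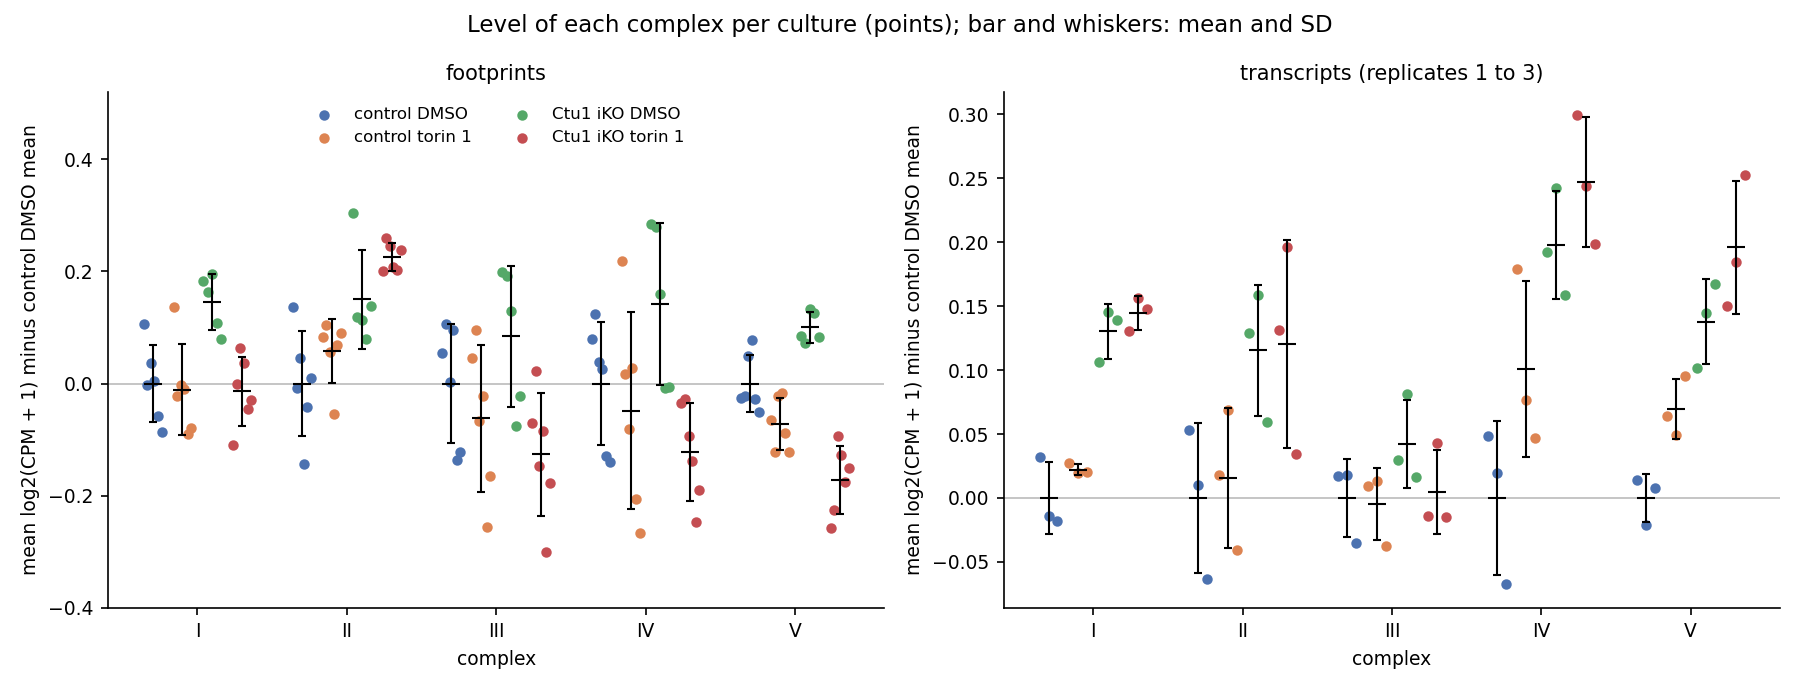
Mean log2(CPM + 1) of the genes of each complex in every culture, minus the mean of the control DMSO cultures, with footprints in one panel and transcripts in the other. Points are cultures coloured by group, with bars and whiskers for the mean and SD. For footprints, Ctu1 iKO with torin 1 lies below Ctu1 iKO with DMSO without overlap in complexes I, IV and V (differences -0.16, -0.26 and -0.27), while complex II lies highest in Ctu1 iKO with torin 1.

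The question whether torin 1 acts differently in the 2 genotypes was put to the interaction, the change with torin 1 in Ctu1 iKO minus that in control. It called 0 members in edgeR, beside 0.638% of all genes. At an unadjusted p under 0.05 there were 9 members, beside 459 of 9868 genes, and DESeq2 called 2, beside 109 of 9868. The members called by DESeq2 were Atp5g2 and Cox7a2l. With the replicate number as a block, which does not pair the cultures in all of these comparisons, edgeR called Atp5g2 (-0.58 ± 0.09, adjusted p = 0.000457) and Cox4i1 (-0.43 ± 0.09, adjusted p = 0.00929), beside 139 of 9868 genes, and with replicates 3 to 6 alone it called Atp5g2, beside 64 of 9866. Whether a member passed in this comparison thus turned on the fit. The values nearest to a call were Atp5g2 (-0.61 ± 0.15, adjusted p = 0.0753), Cox7a2l (-0.65 ± 0.19, adjusted p = 0.231), Atp5g1 (-0.31 ± 0.10, adjusted p = 0.392) and Cox4i1 (-0.44 ± 0.15, adjusted p = 0.411). Of 79 members 8 lay above 0, with a median of -0.15 against 0.01 for all genes, and 0 of 17 complex V, 0 of 9 complex III and 1 of 12 complex IV genes lay above 0. Complex II had a median of 0.03. Without Ctu1 iKO DMSO cultures 4 and 5 edgeR again called 0 members, beside 60 of 9868 genes, with a median of -0.17 and 13 of 79 above 0. These values share all cultures with the comparisons above and partly restate that members were higher in Ctu1 iKO with DMSO.

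At the level of mRNA, torin 1 moved few members. Cox7a2l mRNA was at 89.5, 82.1 and 84.5 CPM in control DMSO replicates 1 to 3 and at 118, 101 and 111 with torin 1. All torin 1 values were higher, so its mRNA rose to 129% (0.37 ± 0.08, adjusted p = 0.0216) while its footprints fell. It was the only member called in control, 1 of 79 beside 5.75% of all genes called higher, and its call held in 2 of 6 fits that each left out 1 library. The members' median was 0.06 against 0.00 for all genes, and 12 of 12 complex IV and 14 of 17 complex V genes lay above 0. In the same libraries the mesenchymal marker sum was 2850 to 2984 CPM with DMSO and 3575 to 3842 with torin 1. The epithelial sum was 288 to 311 and 377 to 434, and the part of these sums in the members' values was not tested. In Ctu1 iKO edgeR called 0 members, beside 8.28% of all genes called in either direction. At an unadjusted p under 0.05 there was 1 member, beside 2386 of 9630 genes, and DESeq2 called 0, beside 1612 of 9630. There Cox7a2l mRNA was at 98.2, 95.6 and 109 CPM with DMSO and 126, 113 and 133 with torin 1 (0.29 ± 0.10, adjusted p = 0.121). Atp5g2 mRNA was at 108, 101 and 129 CPM in control DMSO and 119, 111 and 138 with torin 1, with overlapping groups.

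RNA cultures of the same number deviated together in each comparison, and blocking on the number added calls. In control with torin 1 15 members then passed, 12 higher beside 21.4% of all genes and 3 lower (Cyc1, Ndufb7 and Uqcrq, -0.14 to -0.17) beside 22.8%. The higher ones ran from 0.12 for Ndufa10 to 0.37 for Cox7a2l. In Ctu1 iKO 3 members were higher, among them Cox7a2l (0.28 ± 0.06, adjusted p = 0.00785) and Atp5g2 (0.21 ± 0.06, adjusted p = 0.0257), beside 17.1% of all genes. All these shares of members are under those of all genes.

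With DMSO the mRNA of 34 of 79 members was higher in Ctu1 iKO than in control by small amounts in the fit that pairs replicates. It was higher for 2 members in the fit without pairing. In the latter 72 of 79 lay above 0, with a median of 0.16 against -0.01 for all genes. Medians were 0.16 for complex I, 0.10 for complex II, 0.06 for complex III, 0.24 for complex IV and 0.17 for complex V. Only Cox7b, a small subunit of complex IV, and Sdhc passed, 2 of 79 beside 3.15% of all genes called higher. Cox7b was at 63.0, 59.8 and 57.6 CPM in control and at 74.4, 77.3 and 70.5 in Ctu1 iKO (0.31 ± 0.07, adjusted p = 0.0461), and Sdhc at 68.1, 65.0 and 60.5 against 79.4, 76.8 and 79.6 (0.30 ± 0.07, adjusted p = 0.0476). Neither overlapped. Both stood near the threshold, and the call of Cox7b held in 1 of 6 and that of Sdhc in 0 of 6 fits that each left out 1 library.

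Of the members 37 did not overlap between control and Ctu1 iKO in the higher direction, beside 14.1% of all genes, 14 from complex I, 1 from complex II, 3 from complex III, 10 from complex IV and 9 from complex V. Cyc1 and Uqcrfs1 were the 2 without overlap that were lower. With the replicate number as a block 34 members were higher, beside 13.9% of all genes, and 1 was lower, beside 13.8%. The higher ones included 9 complex IV genes such as Cox7a2 (0.32, adjusted p = 0.00443), Cox6c (0.32, adjusted p = 0.00499) and Cox6b1 (0.30, adjusted p = 0.0057), small structural subunits of cytochrome c oxidase. Complex V gave 8, from Atp5md (0.18) to Atp5l (0.37), the latter a membrane subunit at the dimer interface, and complex I gave 13. The single lower member was Cyc1, at 164, 165 and 186 CPM in control and 139, 146 and 158 in Ctu1 iKO (-0.20 ± 0.05, adjusted p = 0.0182). The epithelial and mesenchymal marker sums given above were also higher in the Ctu1 iKO RNA, both without overlap, and their part in these values was not tested.

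With torin 1 most members again had higher mRNA values in Ctu1 iKO. Of 79 members 66 lay above 0, with a median of 0.14 against 0.01 for all genes and of 0.20 for complex IV. In the same libraries the mesenchymal marker sum was 3575 to 3842 CPM in control and 5643 to 6021 in Ctu1 iKO and the epithelial sum 377 to 434 and 548 to 620, and their part in these values was not tested. Without the block edgeR called 0 members, beside 1.32% of all genes. At an unadjusted p under 0.05 there were 16 members, beside 1935 of 9661 genes, and DESeq2 called 8, beside 1094 of 9661, so both member counts were at the level of all genes. Of the members 26 did not overlap in the higher direction, beside 13% of all genes. With the block 26 were higher, beside 17.3% of all genes, and 1 was lower, beside 15.5%, which was again Cyc1 (-0.21 ± 0.05, adjusted p = 0.0178). Ndufs5 was the highest, with 0.47 ± 0.06 (adjusted p = 0.00122). Comparisons of genotype with DMSO and with torin 1 used separate cultures. The interaction in RNA called 0 members in edgeR, 0 at an unadjusted p under 0.05 and 0 in DESeq2, and 0% of all genes (141 at an unadjusted p under 0.05, 3 in DESeq2).

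**Figure D5:**
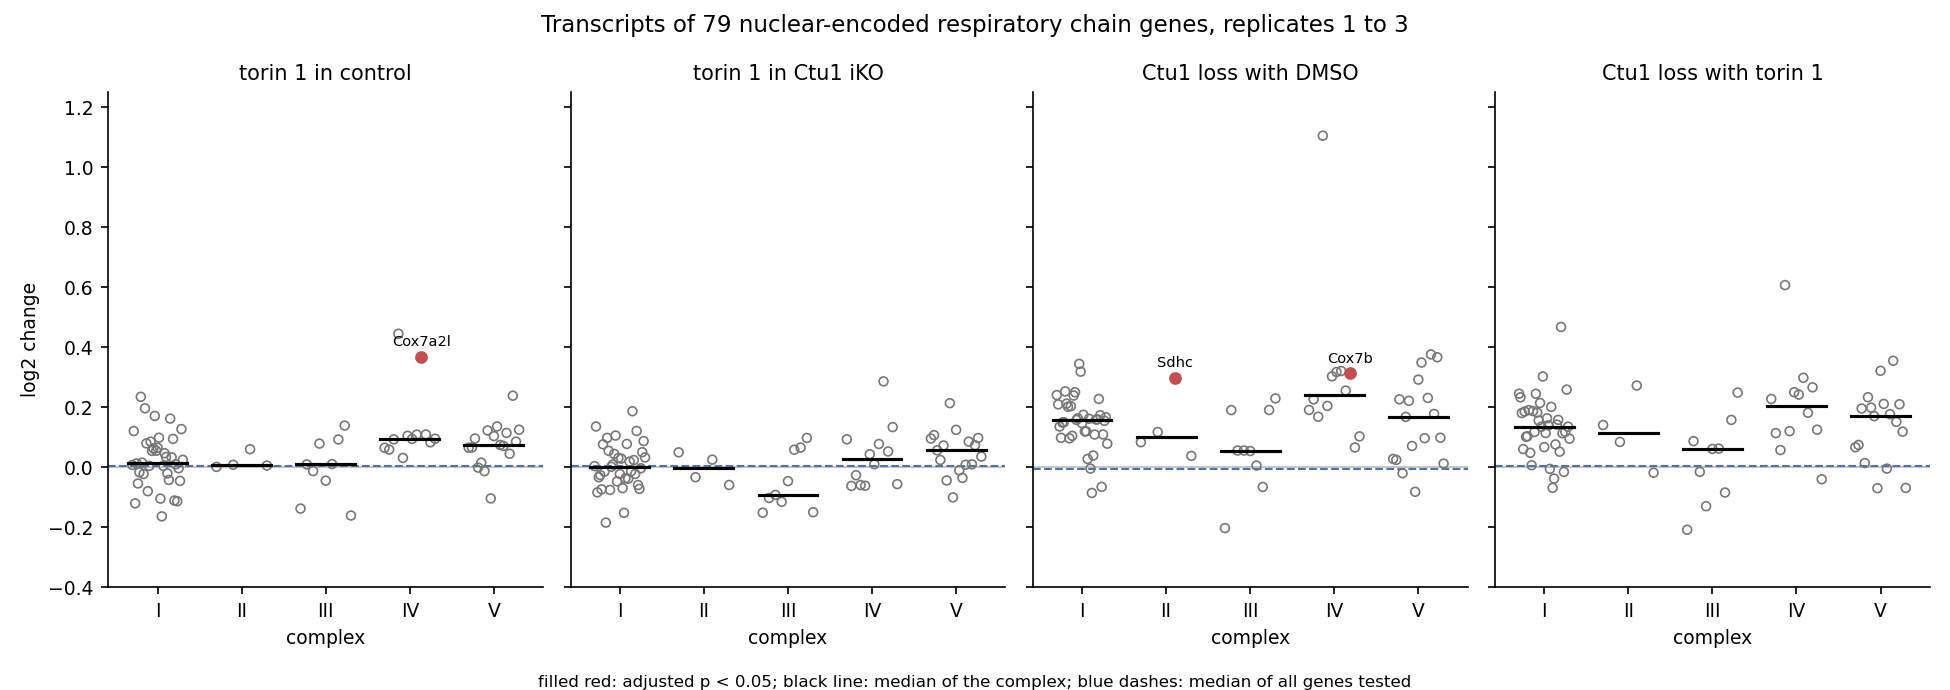
Log2 change of mRNA for each subunit by complex (x axis, I to V), in 4 panels for torin 1 in control, torin 1 in Ctu1 iKO, Ctu1 loss with DMSO and Ctu1 loss with torin 1, from RNA replicates 1 to 3. Points are genes, filled red at an adjusted p under 0.05 without the block, with black lines for complex medians and blue dashes for the median of all genes. In the 2 Ctu1 panels most points lie above 0 (72 and 66 of 79), and 2 and 0 are red.

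Translational efficiency, the change of footprints beyond that of mRNA in replicates 1 to 3, fell for the same 2 genes in both genotypes. In control it was lower for Cox7a2l (-1.55 ± 0.24, adjusted p = 0.00413) and Atp5g2 (-0.78 ± 0.17, adjusted p = 0.0439), 2 of 79 beside 1.07% of all genes called lower. With a term for each culture Atp5g2 had an adjusted p of 0.119 and 1 member was called, beside 1.08% of all genes. In Ctu1 iKO both were lower, Cox7a2l (-2.20 ± 0.26, adjusted p = 0.000258) and Atp5g2 (-1.40 ± 0.24, adjusted p = 0.00702), beside 1.58% of all genes. The median efficiency change of the members was -0.01 in control and -0.20 in Ctu1 iKO, beside 0.03 for all genes in each. The call of Atp5g2 held in 1 of 6 fits that each left out 1 culture in control and in 4 of 6 in Ctu1 iKO. That of Cox7a2l in control was lost without DMSO culture 2 (adjusted p = 0.0687).

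For Ctu1 loss with DMSO edgeR called the efficiency of 0 members, with 1 at an unadjusted p under 0.05 and 0 in DESeq2. This comparison called 0% of all genes (399 at an unadjusted p under 0.05, 20 in DESeq2). In counts simulated for torin 1 in control, the efficiency test recovered 2% of genes lowered by 0.5 log2. The 0 calls thus do not show that efficiency was unchanged. With torin 1 present edgeR again called 0 members, beside 0.111% of all genes, with 8 members at an unadjusted p under 0.05, beside 460 of 9912 genes, and 0 in DESeq2, beside 100 of 9912. Cox7a2l and Atp5g2 had values of -0.81 ± 0.26 (adjusted p = 0.613) and -0.72 ± 0.22 (adjusted p = 0.482), neither of which passed with 3 replicates in each group.

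The codon content of the members was near that of other genes. AAA made up 2.29% of their codons at the median, against 2.19% over all genes and 3.53% in cytosolic ribosomal proteins. AAA, CAA and GAA together made up 5.35% against 6.13%. Of 75 members with a coding sequence 41 lay above the all-gene median for AAA and 29 for the sum. Across these 75 genes, which share libraries and are not independent replicates, the footprint change with Ctu1 loss had a correlation with AAA content of 0.21 with DMSO and 0.14 with torin 1, as a description.

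Other genes of the pathway were counted from lists by function, with all footprint cultures, Ctu1 iKO DMSO cultures 4 and 5 included. Footprints of the 13 mitochondrially encoded subunits, which are made on mitochondrial ribosomes, did not pass in any comparison. Their median was 0.14 with torin 1 in control and 0.58 in Ctu1 iKO, and -0.24 with Ctu1 loss under DMSO, with 13 of 13 on the same side each time. Footprints of mt-Co2, a catalytic subunit of complex IV, for example, had a value of 0.85 with torin 1 in Ctu1 iKO (adjusted p = 0.0931). Among assembly factors, 1 of 14 for complex I and 2 of 20 for complex IV were lower with torin 1 in control, near the 4.33% of all genes called lower. They were Ndufaf4 (-1.11 ± 0.17, adjusted p = 0.000792), Cox10 (-0.75 ± 0.16, adjusted p = 0.00903), which acts in heme a synthesis, and Sco2 (-0.50 ± 0.14, adjusted p = 0.0468), which delivers copper. For Ndufaf4 and Cox10 the mRNA was lower too (-1.10 and -0.56).

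Of 16 carrier and cristae genes 1 was lower with torin 1 in control, beside 4.33% of all genes, and 5 in Ctu1 iKO, beside 4.52%. The difference between these counts was not tested. The 5 included the ADP/ATP translocases Slc25a4 (-0.76 ± 0.12, adjusted p = 0.00135) and Slc25a5 (-0.82 ± 0.15, adjusted p = 0.00296) and the phosphate carrier Slc25a3 (-0.80 ± 0.16, adjusted p = 0.00703), which feed the ATP synthase. Vdac1, the outer membrane channel, was lower in both (-0.25 ± 0.07 and -0.72 ± 0.09), and was the only carrier whose interaction passed (-0.46 ± 0.10, adjusted p = 0.0161). Of 27 import genes 2 and 3 were lower beside the same shares of all genes, with Tomm20, an import receptor, at -0.70 ± 0.07 and -0.93 ± 0.09. In the citric acid cycle 2 of 18 were lower in each genotype, beside those shares, Cs (-0.38 and -0.65) and Pdha1 (-0.37 and -0.49). Of 18 electron carrier and feeder genes 0 were called lower with torin 1 in either genotype, and Cycs, cytochrome c itself, had -0.07 and -0.23. Ndufab1, the acyl carrier protein of complex I, had -0.10 and -0.16, and the ATP synthase assembly factors Atpaf1 and Tmem70 had values from -0.22 to -0.05 that did not pass. Tfam, which packages and transcribes mitochondrial DNA, had lower mRNA in Ctu1 iKO with DMSO (-0.30 ± 0.06, adjusted p = 0.0401) and a footprint value of -0.25 (adjusted p = 0.274).

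The entries Cox5b-ps and Ndufb1-ps, which carry pseudogene names, are uncertain. Footprints on Cox5b-ps were 24.4 to 31.2 per 100 on Cox5b in every library, while its RNA counts were 4 to 26, and reads from it cannot be told apart here from reads of its near-identical parent. Ndufb1-ps had 186 to 4967 footprint counts and 4184 to 8062 RNA counts. Neither was called in any footprint comparison. In RNA with the replicate block, Ndufb1-ps is among the 34 and the 26 members called higher in the comparisons of genotype. Both entries are among the 37 members whose RNA was higher in Ctu1 iKO without overlap with DMSO. They also enter the counts of members and of complex genes above 0, and those counts were not repeated without them.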

How the data were processed

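Processed data were gene tables of whole-number counts. Per the labels and the study's methods, the authors trimmed reads with cutadapt 3.4, removed ribosomal RNA and footprint fragments under 27 nt, and aligned with STAR 2.5.3a, with UMI-tools 1.1.1 for footprints, before counting reads per gene on mm10; the methods also name a human build, and UMI collapse was not stated for RNA. The deposited counts were used as given. RNA counts were all even; halving them moved no count of calls beyond 1.5 times. Genes with a mean count of at least 10 were fitted with edgeR 4.0.16 in R 4.3.3 (TMM, quasi-likelihood test), each comparison with its own groups, at Benjamini-Hochberg adjusted p under 0.05; DESeq2 1.42.0 was an alternative. Levels are TMM-normalised CPM. Efficiency is the assay by group interaction in replicates 1 to 3. RNA replicates 4 to 6 were not used.

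The study's methods name 2 independent biological replicates, made on successive days. Its figure legends give 5 or 6 independent experiments for footprints and 2 for RNA, and the labels number 5 or 6 per group. If only 2 were independent, the p-values, which measure the spread between these samples, are too small. Whether replicate numbers pair cultures was read from the correlation of deviations from group means. It was over 0.1 for every pair in footprints of torin 1 in control (0.436 to 0.641) and of Ctu1 loss with torin 1 (0.319 to 0.546) and in all RNA comparisons (0.488 to 0.837), but not for the other footprint comparisons. No 2 libraries agreed within counting noise.

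The members and lists were chosen with earlier results of these data known. Named genes are, in each direction, the 5 largest changes among called members with groups that do not overlap, plus fixed core subunits of each complex, Ndufa4, Cox7a2l and Tfam, Cycs, Ndufab1, Atpaf1 and Tmem70; any other gene named in the text was picked with its values in view. Starts and promoters are from RefSeq (GRCm38.p6) and coding lengths and codons from GENCODE M21. The tests were tried on simulated counts for torin 1 in control. Log2 changes of -0.5 and 0.5 were recovered in 74 and 66% of changed genes in footprints. In transcripts it was 41.7 and 26.5%, and in efficiency 2 and 4%. Left out were genes of the rule with no entry in the tables used, such as Cox6a2 and Cox7a1, which were not analysed here. Values of 1 member that is counted in the totals are not reported here. Alternatives are named in the closing section.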

Additional observations from a re-analysis of the deposited data

Results flagged for a closer look

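Among 132 groups of member values and complex means, 4 held a sample far from the others by Dixon's criterion, where chance gives about 1 in 20. The mean log2 footprint level of complex II was 5.88 in control torin 1 replicate 4, against 5.99 to 6.04 in the other 5, and 6.23 in Ctu1 iKO DMSO replicate 1, against 6.01 to 6.07. Cox4i1 was at 597 CPM of footprints in control DMSO replicate 1, against 460 to 509 in the others. Ndufb10 was at 37.1 CPM in Ctu1 iKO torin 1 replicate 1, against 51.99 to 59.2. Vdac1, a gene outside the members, had a torin 1 effect on footprints that differed between the genotypes (interaction -0.46, adjusted p = 0.0161).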

How the results depend on the processing

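No call of a count or of a named member changed direction under any alternative, and 179 of 247 alternative counts of called members lay within 1.5 times the main count. The footprint calls of Cox7a2l and Atp5g2 with torin 1 in Ctu1 iKO held under every alternative run for them. With DESeq2 the counts of called members were 4 for footprints of Ctu1 loss with DMSO, 5 for Ctu1 loss with torin 1 and 2 for the interaction, 3 for RNA of torin 1 in control, 12 and 8 for RNA of Ctu1 loss with DMSO and with torin 1, and 4 and 10 for efficiency with torin 1 in control and in Ctu1 iKO. DESeq2 called more of all genes too, in the same order 699 of 10408, 846 of 9924, 109 of 9868, 1967 of 9628, 1534 of 10130, 1094 of 9661, 223 of 9859 and 324 of 9856. With all groups in 1 fit they were 5 for footprints of Ctu1 loss with torin 1, 1, 6 and 6 for RNA of torin 1 in Ctu1 iKO and of Ctu1 loss with DMSO and with torin 1, and 1 and 5 for efficiency with torin 1, beside 846 of 9868, 1721, 605 and 973 of 9627, and 110 and 253 of 9862 genes. With all replicates they were 3 and 39 for RNA of torin 1 in control and of Ctu1 loss with DMSO, and 4, 8 and 2 for efficiency with torin 1 in control, in Ctu1 iKO and for Ctu1 loss with torin 1, beside 915 of 9641, 2676 of 10139, 161 of 9867, 254 of 9865 and 114 of 9923 genes, but these include RNA libraries that lie against their treatment label. With library totals alone they were 2, 0 and 1 for footprints and RNA of Ctu1 loss with DMSO and efficiency with torin 1 in control, beside 298 of 10408, 471 of 10130 and 97 of 9859 genes. That scaling moved the median of all genes to 0.10 and 0.11 for footprints with torin 1 in control and Ctu1 iKO, and to 0.16 and 0.20 for efficiency, while the members' footprint medians were 0.09 and -0.07.

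With the replicate block, counts were 13 and 9 for footprints of torin 1 in control and Ctu1 loss with torin 1, 15, 3, 35 and 27 in RNA of torin 1 in control and in Ctu1 iKO and of Ctu1 loss with DMSO and with torin 1, and 1 for efficiency with torin 1 in control. In footprints where the numbers do not pair cultures, the block gave 12 with torin 1 in Ctu1 iKO, 2 for Ctu1 loss with DMSO and 2 for the interaction, beside 984 of 9866, 366 of 10408 and 139 of 9868 genes. It changed no other count by over 1.5 times. With footprints of replicates 1 and 2, chosen after seeing the data, counts were 0, 2, 0 and 0 for torin 1 in control and in Ctu1 iKO and Ctu1 loss with DMSO and with torin 1, beside 134 of 9847, 145 of 9830, 0 of 10369 and 0 of 9878 genes. With replicates 1 to 3 they were 2 for torin 1 in Ctu1 iKO and 0 and 0 for Ctu1 loss with DMSO and with torin 1, beside 180 of 9859, 2 of 10404 and 1 of 9916. Where so few genes were called, the absence of members says nothing about them. With replicates 3 to 6 they were 4 for Ctu1 loss with torin 1, beside 644 of 9921, and 1 for the interaction, beside 64 of 9866. Without Ctu1 iKO DMSO cultures 4 and 5, also chosen after seeing the data, 6 were called for torin 1 in Ctu1 iKO. Leaving out 1 replicate at a time gave 2 to 3 for torin 1 in control, 9 to 13 in Ctu1 iKO, 0 to 2 for Ctu1 loss with DMSO, 1 to 3 with torin 1 and 0 to 1 for the interaction in footprints, 0 to 1 for torin 1 in control and 0 to 2 for Ctu1 loss with DMSO in RNA, and 0 to 2 and 1 to 4 for efficiency with torin 1 in control and Ctu1 iKO. Other size factors, no filter on low counts and halved RNA counts moved no count by over 1.5 times. The cause of these moves was not tested. The lowest mean footprint count of a member was 366 for Ndufa1. The shares of all genes, which were fitted from a mean count of 10, were not matched to the members by count.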
